A study of Mus musculus with 12 samples.

Results

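Antigen presentation was followed across mouse kidney cortex in 10 genes, given by name and all found by symbol among the 11614 genes of the deposited files. The 6 class I genes were B2m, H2-K1, H2-D1, Tap1, Tap2 and Tapbp, and the 4 class II genes were Cd74, H2-Aa, H2-Ab1 and H2-Eb1. RNA was sequenced in 12 libraries of C57BL/6J kidney cortex, 3 in each of 4 groups. Non-alcoholic steatohepatitis (NASH) is a fatty, inflamed state of the liver, induced here by a Western diet together with CCl4, a liver toxin. Control mice received a normal diet and corn oil, and each treatment was given for 12 or for 24 weeks. The labels name no gene alteration, no age and no kidney insult, and NASH mice differ from controls in the diet, the toxin and the liver disease together, which cannot be told apart here. They list equal numbers of male and female mice per group but assign no sex to a library, and nothing says whether a library holds 1 animal or a pool, so p-values measure only the spread between these samples, which may be technical.

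MHC molecules hold peptides at the cell surface for T cells to read. Class I is carried by nearly all nucleated cells: a heavy chain such as H2-K1 or H2-D1 pairs with beta-2 microglobulin (B2m) around peptides cut by the proteasome, which the transporter subunits Tap1 and Tap2 pump into the endoplasmic reticulum and tapasin (Tapbp) helps to load. Class II is carried by macrophages, dendritic cells and B cells, and by tubule cells under interferon gamma: an alpha and a beta chain (H2-Aa with H2-Ab1, forming I-A) assemble with the invariant chain Cd74, which fills the groove until H2-DM exchanges it for a peptide. H2-Eb1 is the beta chain of I-E, whose alpha chain C57BL/6 mice do not make. In bulk tissue, fewer cells of a type and less RNA per cell cannot be told apart.

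Class I and class II promoters share short boxes, X2 and Y, read by a common factor complex, and class I promoters also carry a kappa B site (enhancer A) and an interferon-stimulated response element. RefSeq promoters on GRCm38.p6 were taken by symbol for 7 of the 10 genes, and the 250 bases before each start were searched on both strands. Cd74 was left out of this search, and no promoter was matched for Tap2 and H2-Ab1. The sequences are shown because they hold what the genes have in common beyond their names. Each is written 5′ to 3′ along the gene's own strand, and capitals mark the matched motifs.
H2-K1 promoter, chr17:34000334-34000583, strand minus: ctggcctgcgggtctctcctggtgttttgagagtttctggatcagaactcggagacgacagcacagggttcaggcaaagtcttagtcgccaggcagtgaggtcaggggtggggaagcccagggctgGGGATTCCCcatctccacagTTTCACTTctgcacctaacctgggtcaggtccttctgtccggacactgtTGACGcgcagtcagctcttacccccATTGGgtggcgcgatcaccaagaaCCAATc
H2-D1 promoter, chr17:35262844-35263093, strand plus: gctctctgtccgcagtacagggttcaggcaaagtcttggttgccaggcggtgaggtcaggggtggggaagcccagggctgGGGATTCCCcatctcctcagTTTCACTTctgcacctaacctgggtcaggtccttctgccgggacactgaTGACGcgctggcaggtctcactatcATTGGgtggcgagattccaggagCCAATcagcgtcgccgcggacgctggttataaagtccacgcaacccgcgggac
B2m promoter, chr2:122147437-122147686, strand plus: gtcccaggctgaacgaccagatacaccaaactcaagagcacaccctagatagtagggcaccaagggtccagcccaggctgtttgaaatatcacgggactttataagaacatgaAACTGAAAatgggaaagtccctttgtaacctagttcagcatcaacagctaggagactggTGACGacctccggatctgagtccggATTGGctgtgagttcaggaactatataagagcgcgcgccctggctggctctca
H2-Aa promoter, chr17:34287824-34288073, strand minus: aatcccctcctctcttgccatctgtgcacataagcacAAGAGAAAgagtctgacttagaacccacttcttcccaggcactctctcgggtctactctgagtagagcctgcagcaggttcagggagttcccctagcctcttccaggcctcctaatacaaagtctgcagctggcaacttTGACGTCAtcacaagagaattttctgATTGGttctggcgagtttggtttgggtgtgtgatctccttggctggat
H2-Eb1 promoter, chr17:34305617-34305866, strand plus: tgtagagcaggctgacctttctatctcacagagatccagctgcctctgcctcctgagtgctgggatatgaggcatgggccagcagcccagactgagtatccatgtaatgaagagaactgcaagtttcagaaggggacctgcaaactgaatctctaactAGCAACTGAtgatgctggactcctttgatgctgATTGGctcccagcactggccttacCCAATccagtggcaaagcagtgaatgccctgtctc

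The motif letters were GGGATTCCC for the kappa B site, TTTCNNTT for the core of the response element, TGACG for X2, ATTGG for Y and AGNAACNGA for the X1 box. The kappa B letters occurred in H2-K1 and H2-D1, and in 0.302% of 32817 promoters of the same length. The response element letters occurred in B2m, H2-K1, H2-D1 and H2-Aa, against 21.3% of all promoters. X2 letters occurred in 5 of the 7 genes (17.7% of all promoters) and Y letters in all 7 (33.8%). H2-Eb1 held the X1 letters, found in 4.42% of all promoters. In H2-Aa the X2 letters overlap on both strands. From the first base of X2 to the first base of Y on the same strand there were 25 bases in B2m, H2-K1 and H2-D1 and 26 in H2-Aa, a spacing examined after these matches had been seen. That arrangement occurred in 0.152% of all promoters. The H2-K1 and H2-D1 windows were alike over 87.2% of 203 aligned bases and shared a run of 47 bases. These letter matches are descriptions of sequence, not measured binding.

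**Figure D1:**
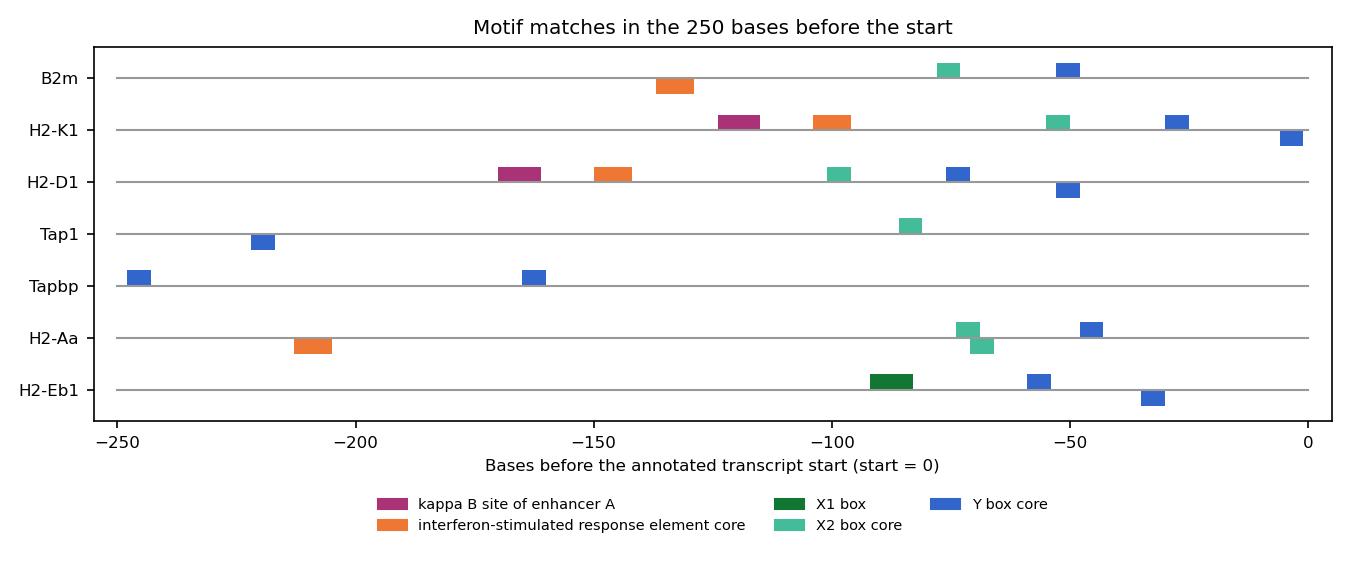
Motif matches in the 250 bases before the transcript start of 7 antigen presentation genes; the horizontal axis is the distance from the start in bases, boxes above a line lie on the gene's strand and boxes below it on the other strand. X2 precedes Y by 25 or 26 bases in B2m, H2-K1, H2-D1 and H2-Aa, and the kappa B letters appear in H2-K1 and H2-D1.

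Deposited values are log2 of read counts multiplied by 1 factor per library. Estimated depth ran from 7170000 reads (NASH at 12 weeks, replicate 2) to 14100000 (control at 24 weeks, replicate 2). All 10 listed proximal tubule markers were measured. They averaged log2 13.73 in replicate 3 of 12-week NASH and 13.96 to 14.15 in every other library. Xist was at 10.6 to 11.5 in replicate 1 of every group and at 2.97 to 4.86 in replicates 2 and 3, with Ddx3y at 2.48 to 4.25 against 8.95 to 9.62. Xist is expressed in female cells and Ddx3y lies on the Y chromosome. Equal numbers of male and female mice are listed per group, but only 1 of its 3 libraries had female levels. Replicate 1 thus stood apart in every group, with female levels, while replicates 2 and 3 had male levels. Fitting the replicate number as a block also takes up this difference, and fits of replicates 2 and 3 alone leave out the libraries with female levels. Values for replicates 2 and 3 alone are given beside the member differences and the calls that change without replicate 1.

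The members were well expressed, apart from the peptide transporter. Per kilobase of transcript, the log2 level over the 12 libraries was 12.70 for B2m, higher than in 98.8% of genes, then 11.46 for Cd74, 10.92 for H2-D1, 10.71 for H2-Aa, 10.39 for H2-Ab1, 9.92 for H2-K1, 9.76 for H2-Eb1, 8.75 for Tapbp, 6.95 for Tap2 and 6.01 for Tap1. From Cd74 down to H2-Eb1, the order of neighbouring genes was within the spread between libraries of 1 group. In replicate 3 of the 24-week controls, for example, Cd74 was at 10.48 and H2-D1 at 10.58. Estimated reads per library ranged from 2820 to 7081 for B2m and from 57.5 to 271 for Tap1, which was less precisely counted. B2m lies on chr2:122147687-122153082 (plus strand, mm10). The members other than B2m and Cd74 lie within the MHC on chromosome 17, with H2-K1 at chr17:33996012-34000333 (minus), H2-D1 at chr17:35263094-35267497 (plus), Tap1 at chr17:34187556-34197225 (plus) and Tap2 at chr17:34204479-34216321 (plus). Tapbp spans chr17:33919478-33929290 (plus), H2-Ab1 chr17:34263227-34269418 (plus), H2-Aa chr17:34282751-34287771 (minus) and H2-Eb1 chr17:34305867-34316674 (plus). The values are for whole gene models. Heavy chain genes are near copies of each other, and reads can be split between them in ways the sources used here do not describe.

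Class I heavy and light chains were higher on average in NASH kidney cortex at both times, but by amounts that did not pass the test over all genes. B2m, the chain common to all class I molecules, was at log2 12.57, 12.17 and 11.74 in the 12-week controls (replicates 1, 2 and 3) and 12.81, 12.48 and 12.58 in 12-week NASH. At 24 weeks B2m was at 12.62, 12.10 and 11.76 in controls and 12.78, 12.63 and 13.55 in NASH. Each NASH library exceeded the control library of its own number, as for 16.9% of all genes at 12 weeks and 19.3% at 24 weeks. No label links libraries of 1 number. The groups overlapped at 12 weeks through replicate 1 of the controls and did not overlap at 24 weeks, when 4.56% of all genes were higher in NASH without overlap.

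The NASH minus control difference of B2m was 0.46 at 12 weeks (SE 0.29, limma adjusted p = 0.467) and 0.82 at 24 weeks (SE 0.29, limma adjusted p = 0.999; unadjusted p = 0.0153). Averaged over both times it was 0.64 (SE 0.20, limma adjusted p = 0.288), a 1.56-fold difference. With the replicate number as a block B2m rose by that average (limma adjusted p = 0.0481), when 3.03% of all genes were called higher. That call held in 3 of 16 other fits with the block, over which the adjusted p ran from 0.0418 to 0.151. Without the highest library, NASH at 24 weeks replicate 3, the average was 0.50 without the block (limma adjusted p = 0.425) and 0.43 with it (limma adjusted p = 0.0544). For replicates 2 and 3 alone it was 0.86 (limma adjusted p = 0.0537).

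The classical heavy chains showed smaller differences than B2m at 24 weeks and on average, while at 12 weeks that of H2-D1 was as large as that of B2m. H2-D1 was at log2 11.19, 11.63 and 11.31 in the 12-week controls and 11.83, 11.75 and 12.01 in 12-week NASH, and at 11.76, 11.65 and 11.37 in the 24-week controls and 11.66, 11.85 and 12.59 in 24-week NASH. At 12 weeks every NASH library lay above every control library, as for 8.14% of all genes, while at 24 weeks the groups overlapped. The difference was 0.49 at 12 weeks (SE 0.22, limma adjusted p = 0.345) and 0.44 at 24 weeks (SE 0.22, limma adjusted p = 0.999), with an average of 0.47 (SE 0.16, limma adjusted p = 0.295). Without replicate 3 of 24-week NASH, the 24-week difference of H2-D1 was 0.16. The average was called in 1 of the fits with the block, after median-of-ratios scaling (limma adjusted p = 0.0498).

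H2-K1 was at log2 10.15, 10.47 and 10.24 in the 12-week controls and 10.88, 10.38 and 10.61 in 12-week NASH, and at 10.93, 10.41 and 10.46 in the 24-week controls and 10.65, 10.53 and 11.94 in 24-week NASH. Both pairs of groups overlapped, and a single library, replicate 3 of 24-week NASH, stood far above the rest. The difference was 0.33 at 12 weeks (SE 0.32, limma adjusted p = 0.654) and 0.44 at 24 weeks (SE 0.32, limma adjusted p = 0.999). Without that library the difference at 24 weeks was -0.0098 (SE 0.20, limma adjusted p = 0.999).

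**Figure D2:**
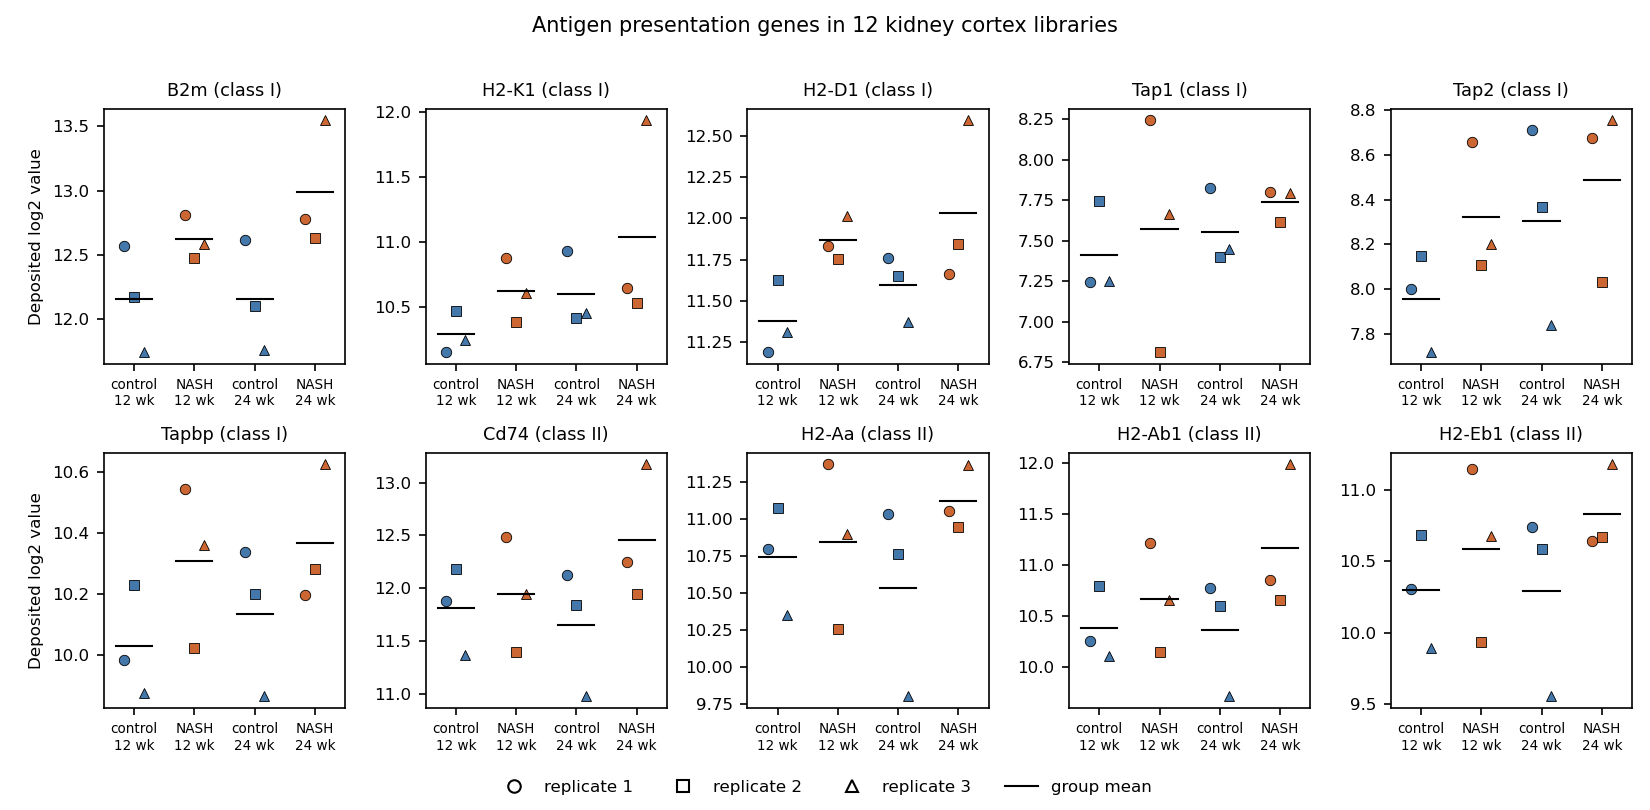
Deposited log2 value of each of the 10 genes in each of the 12 libraries, with replicate numbers as symbols, control in blue, NASH in orange and a line at the group mean; vertical axes differ between panels and do not start at 0. Replicate 3 of 24-week NASH is the highest library for 5 of 6 class I genes and 3 of 4 class II genes.

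Averaged over both times, the peptide supply members showed the smallest differences among the 6 class I genes, although at 12 weeks that of Tap2 (0.37) was above that of H2-K1 (0.33). Tap1, a subunit of the peptide transporter, was at log2 7.24, 7.74 and 7.25 in the 12-week controls and 8.24, 6.81 and 7.66 in 12-week NASH, so NASH held both its highest and its lowest library. At 24 weeks Tap1 was at 7.82, 7.40 and 7.45 in controls and 7.80, 7.62 and 7.79 in NASH, and the groups overlapped. Its average difference was 0.17 (SE 0.22, limma adjusted p = 0.770), and 0.011 for replicates 2 and 3 alone.

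Tap2, the partner subunit, ran from 7.72 to 8.15 and from 7.84 to 8.71 in the controls at 12 and 24 weeks, and from 8.11 to 8.66 and from 8.03 to 8.76 in NASH. Tapbp, the loading chaperone tapasin, ran from 9.88 to 10.23 and from 9.87 to 10.34 in controls, and from 10.02 to 10.54 and from 10.20 to 10.62 in NASH. The groups overlapped for both genes at both times, and without replicate 3 of the 24-week controls the 24-week difference of Tap2 was -0.050. The average differences were 0.27 for Tap2 (SE 0.19, limma adjusted p = 0.537) and 0.26 for Tapbp (SE 0.13, limma adjusted p = 0.401).

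Over the 6 class I genes, all 6 were higher in NASH at 12 weeks and 0 were called, against 0.0517% of all genes called; the median difference was 0.35, against -0.080 over all genes, and limma gave 1 of the 6 (H2-D1) and 1684 of all 11614 genes an unadjusted p under 0.05. For replicates 2 and 3 alone the 12-week differences were 0.57 for B2m, 0.41 for H2-D1, 0.22 for Tap2, 0.14 for H2-K1 and for Tapbp, and -0.26 for Tap1. At 24 weeks all 6 were again higher and 0 were called, as were 0% of all genes, of which 347 reached an unadjusted p under 0.05; the median was 0.34, against 0.010 over all genes. Without replicate 3 of 24-week NASH, 5 of 6 were higher at 24 weeks, and the median was 0.13 against 0.061 over all genes, with 0.54 for B2m, 0.10 for Tapbp and 0.049 for Tap2. The 12- and 24-week effects use separate libraries, and all 6 genes lie in the same functional group, so their common direction is not 6 separate observations.

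Class II genes were higher on average in NASH too, most of all at 24 weeks, with 0 of 4 called at either time. Cd74, the invariant chain, was at log2 11.88, 12.18 and 11.37 in the 12-week controls and 12.49, 11.39 and 11.95 in 12-week NASH, and at 12.13, 11.84 and 10.98 in the 24-week controls and 12.25, 11.94 and 13.17 in 24-week NASH. Replicate 3 held both the lowest control and the highest NASH value at 24 weeks, and the groups overlapped at both times. The difference was 0.13 at 12 weeks (SE 0.40, limma adjusted p = 0.900) and 0.80 at 24 weeks (SE 0.40, limma adjusted p = 0.999).

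H2-Ab1, the I-A beta chain, was at log2 10.25, 10.79 and 10.11 in the 12-week controls and 11.21, 10.14 and 10.66 in 12-week NASH, and at 10.77, 10.59 and 9.71 in the 24-week controls and 10.85, 10.66 and 11.99 in 24-week NASH. The pattern was that of Cd74: the NASH library of number 2 lay below its control at 12 weeks, and that of number 3 lay far above its control at 24 weeks. The difference was 0.29 at 12 weeks (SE 0.40, limma adjusted p = 0.767) and 0.80 at 24 weeks (SE 0.40, limma adjusted p = 0.999).

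H2-Aa, the I-A alpha chain, was at log2 10.79, 11.07 and 10.35 in the 12-week controls and 11.37, 10.25 and 10.90 in 12-week NASH, and at 11.03, 10.76 and 9.80 in the 24-week controls and 11.05, 10.94 and 11.36 in 24-week NASH. H2-Eb1 was at 10.31, 10.68 and 9.90, then 11.15, 9.93 and 10.68, then 10.74, 10.58 and 9.56, and then 10.64, 10.67 and 11.18 in the same order of groups. In both genes the 24-week NASH libraries lay close together and the control of number 3 was the lowest of the 12. The differences at 24 weeks were 0.59 for H2-Aa (SE 0.34, limma adjusted p = 0.999) and 0.54 for H2-Eb1 (SE 0.36, limma adjusted p = 0.999). At 12 weeks the differences were 0.10 for H2-Aa (SE 0.34, limma adjusted p = 0.912) and 0.29 for H2-Eb1 (SE 0.36, limma adjusted p = 0.740).

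The class II differences are also described by same-numbered pairs, though no label links libraries of 1 number across groups. Deviations from group means correlated at a median of 0.40 for 2 with 2 and 0.43 for 3 with 3. For 2 with 3 the median was 0.37, so pairs 2 and 3 are not shown to be matched. At 12 weeks pairs 1 and 3 were higher in NASH for all 4 genes, and pair 2 was lower by 0.79 for Cd74, 0.82 for H2-Aa, 0.65 for H2-Ab1 and 0.75 for H2-Eb1 on the log2 scale. At 24 weeks pair 3 differed by 2.20 for Cd74, 1.56 for H2-Aa, 2.27 for H2-Ab1 and 1.62 for H2-Eb1. Pairs 1 and 2 lay between -0.09 (H2-Eb1, pair 1) and 0.18 (H2-Aa, pair 2). All 3 pairs were higher for 3 of the 4 genes at 24 weeks, against 19.3% of all genes, and for 0 of the 4 at 12 weeks, against 16.9%.

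**Figure D3:**
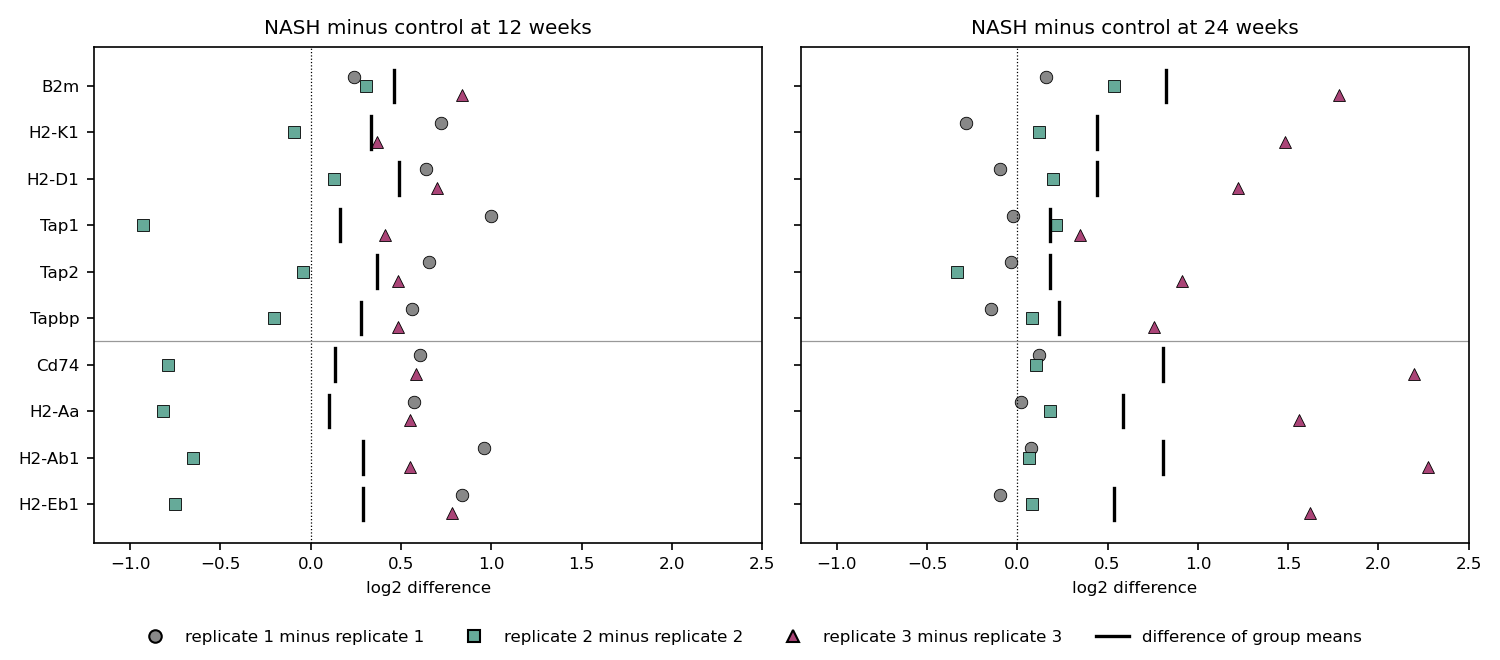
NASH minus control log2 difference for each same-numbered pair of libraries (symbols) and for the group means (bars), at 12 weeks on the left and 24 weeks on the right; class I genes are above the line and class II genes below it. Pair 2 lies below 0 for all class II genes at 12 weeks, and pair 3 lies at 1.56 to 2.27 for them at 24 weeks.

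The median class II difference was 0.21 at 12 weeks and 0.70 at 24 weeks, against -0.080 and 0.010 over all genes. Without replicate 3 of 24-week NASH the 24-week median was 0.42, with the 4 genes from 0.36 (H2-Eb1) to 0.47 (H2-Aa). Replicate 3 of the 24-week controls was the lowest library for all 4 genes. Over 35 alternative fits the 24-week difference ran from 0.26 to 1.15 for Cd74 and from 0.22 to 0.87 for H2-Aa. For H2-Ab1 it ran from 0.24 to 1.17 and for H2-Eb1 from 0.16 to 0.85. For replicates 2 and 3 alone, the 12-week difference was -0.11 for Cd74, -0.13 for H2-Aa, -0.05 for H2-Ab1 and 0.015 for H2-Eb1, so 3 of the 4 lay below 0. The 12-week differences of Cd74 and H2-Aa also lay below 0 without replicate 3 of the 12-week controls alone, and were lowest, at -0.14 and -0.16, without replicate 1 of 12-week NASH alone. The 24-week differences for replicates 2 and 3 alone were 1.15 for Cd74, 0.87 for H2-Aa, 1.17 for H2-Ab1 and 0.85 for H2-Eb1, and 0 of these passed limma's test (adjusted p = 0.427 to 0.519).

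The effect at 24 weeks did not differ detectably from that at 12 weeks for any of the 10 genes. The difference of the NASH effects, 24 minus 12 weeks, was largest for Cd74, at 0.67 (SE 0.56), and was 0.36 for B2m (SE 0.41) and -0.18 for Tap2 (SE 0.37), each with a limma adjusted p of 0.9995. Of all genes 0% were called in that test, with 425 at an unadjusted p under 0.05. Averaged over both times the NASH effect was 0.55 for H2-Ab1 (SE 0.28, limma adjusted p = 0.413), 0.47 for Cd74 (SE 0.28, limma adjusted p = 0.478), 0.41 for H2-Eb1 (SE 0.26, limma adjusted p = 0.499), 0.39 for H2-K1 (SE 0.23, limma adjusted p = 0.464) and 0.34 for H2-Aa (SE 0.24, limma adjusted p = 0.552). Here again 0% of all genes were called, with 1579 at an unadjusted p under 0.05.

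**Figure D4:**
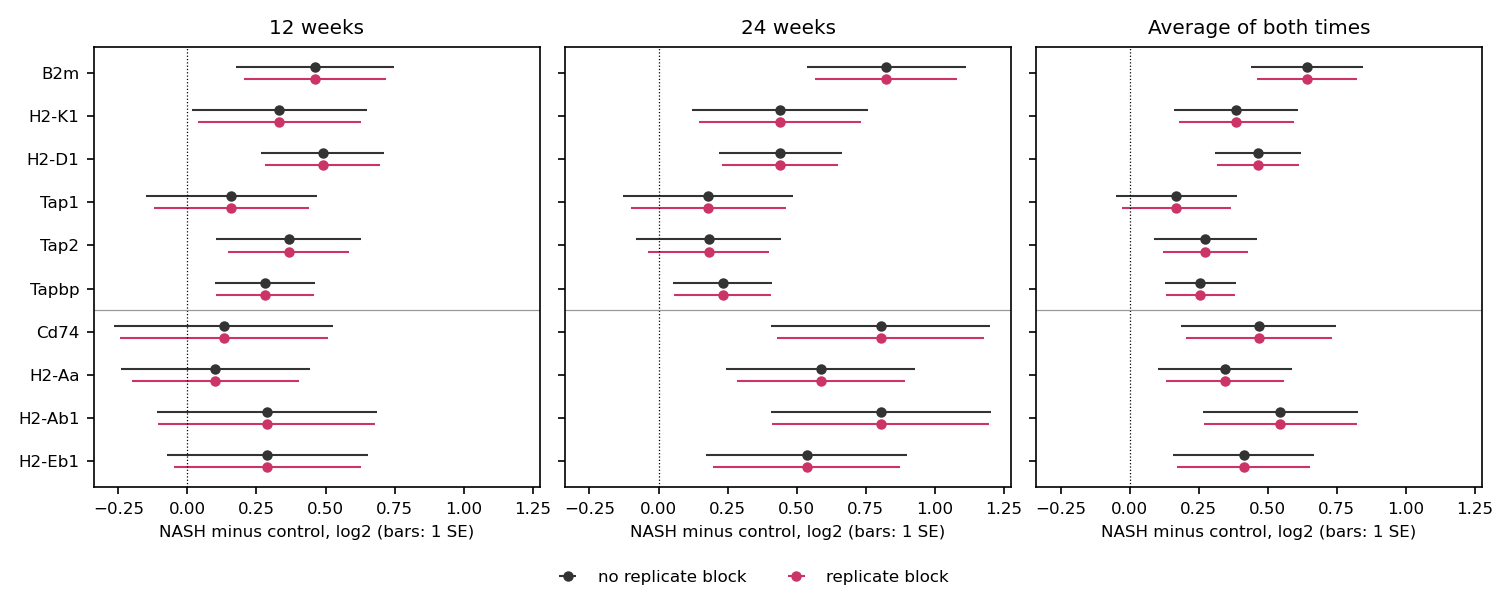
NASH minus control difference in log2 for each gene at 12 weeks, at 24 weeks and averaged over both, with and without the replicate number as a block; points are estimates and bars 1 SE on each side. All 10 estimates lie above 0 in all panels, and the average for B2m, 0.64 with the block, is the 1 that limma called (adjusted p = 0.0481).

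Time alone was examined within each treatment. From 12 to 24 weeks in controls the class I differences ran from 0.00091 (B2m) to 0.35 (Tap2) and the class II differences from -0.21 (H2-Aa) to -0.0038 (H2-Eb1). In NASH all 10 genes were higher at 24 weeks on average, from 0.058 (Tapbp) to 0.51 (Cd74). Limma called 0 of the 10 in either test, and 0% of all genes. The control libraries of this comparison are also those of the NASH effects, so the values are not independent of those above.

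Other class I genes of the H2 locus and its relatives were mostly higher in NASH, like the members. Of 26 listed, 13 were measured, and 11 of 13 were higher in NASH at each time (medians 0.43 at 12 weeks and 0.29 at 24 weeks), with 0 called. H2-T23, the heavy chain of Qa-1, which presents signal peptides to receptors on NK and T cells, was at log2 9.19, 10.104 and 9.91 in the 12-week controls and 10.28, 10.25 and 10.51 in 12-week NASH, and at 9.70, 9.96 and 9.87 in the 24-week controls and 10.04, 10.11 and 10.66 in 24-week NASH. NASH and control libraries of H2-T23 did not overlap at either time. Over all genes 8.14% were higher in NASH without overlap at 12 weeks and 4.56% at 24 weeks. With the replicate block H2-T23 rose by 0.61 at 12 weeks (SE 0.17, limma adjusted p = 0.0423), when 3.01% of all genes were called higher. On average it rose by 0.52 (SE 0.12, limma adjusted p = 0.0286), when 3.03% were. For replicates 2 and 3 alone with the block, the H2-T23 differences were 0.37 and 0.42 and neither passed (limma adjusted p = 0.213 and 0.111). The calls held in 6 and 7 of 16 other fits with the block, and without the block neither was called (limma adjusted p = 0.289 and 0.288).

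The other 3 named genes of that list did not pass with the block either: the average difference was 0.30 for H2-T9 (limma adjusted p = 0.0987), 0.29 for H2-T22 (limma adjusted p = 0.110) and 0.49 for H2-Q4 (limma adjusted p = 0.134). Values of H2-T9 and H2-T22 differed by at most 0.0932 in any library, and H2-Q6 and H2-Q8 had identical values, so these near copies are not separate measurements. The b haplotype of C57BL/6 mice is known to lack an H2-L gene, and the values listed under H2-L, from 9.89 to 11.29, cannot be assigned with certainty.

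Of the 11 genes of class I peptide supply, all measured, 8 were higher in NASH at each time (medians 0.069 and 0.17), with 0 called. Psme1, a subunit of the PA28 proteasome activator, was at log2 8.81, 9.13 and 8.83 in the 12-week controls, 9.61, 9.06 and 9.53 in 12-week NASH, 9.22, 9.32 and 8.98 in the 24-week controls and 9.55, 9.76 and 9.76 in 24-week NASH. Groups of Psme1 did not overlap at 24 weeks, when 4.56% of all genes were higher in NASH without overlap, and did at 12 weeks. With the block it rose by 0.50 on average (SE 0.12, limma adjusted p = 0.0288, and 0.264 without the block), when 3.03% of all genes were called higher. That call held in 6 of 16 other fits with the block. Psme1 did not pass for replicates 2 and 3 alone (0.46, limma adjusted p = 0.112) or with the GC and length trend removed (0.31, limma adjusted p = 0.109). Psmb10, a catalytic immunoproteasome subunit, differed by 0.64 (limma adjusted p = 0.0821 with the block), the chaperone calreticulin (Calr) by 0.15 (limma adjusted p = 0.197) and Psme2 by 0.22 (limma adjusted p = 0.245).

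All 8 measured genes of class II chains and processing, of 16 listed, were higher in NASH at both times (medians 0.17 and 0.21), with 0 called with or without the block. H2-DMb1 and H2-DMa, which together exchange the Cd74 fragment for a peptide, differed on average by 0.64 and 0.60 (limma adjusted p = 0.164 and 0.179 with the block). Replicate 3 of 24-week NASH was the highest library for both, at log2 9.72 for H2-DMb1 and 8.69 for H2-DMa. The thiol reductase Ifi30 differed by 0.18 and the protease cathepsin B (Ctsb) by 0.16 (limma adjusted p = 0.169 and 0.241 with the block).

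The 8 factors that read class II promoters, all measured, were lower in NASH for 7 of 8 at 12 weeks (median -0.23) and higher for 6 of 8 at 24 weeks (median 0.19), with 0 called with or without the block. Average differences with the block were -0.18 for Nfyb and 0.11 for Nfyc, subunits of the Y box factor, -0.098 for Creb1 and 0.088 for Rfx5 (limma adjusted p = 0.280, 0.442, 0.528 and 0.620).

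Interferon gamma signalling genes were measured for 20 of 25. They were higher in NASH for 15 of 20 at 12 weeks and 10 of 20 at 24 weeks (medians 0.16 and 0.0018), with 0 called without the block. With the block Gbp3, a guanylate-binding protein, rose by 0.86 on average (SE 0.22, limma adjusted p = 0.0374), when 3.03% of all genes were called higher. The kinase Jak1 fell with the block by 0.38 at 12 weeks (limma adjusted p = 0.0263), when 9.85% of all genes were called lower. On average Jak1 fell by 0.28 (SE 0.065, limma adjusted p = 0.0283), when 7.36% were. The Gbp3 call held in 5 of 16 other fits with the block, and the Jak1 calls in 9 and 5. For replicates 2 and 3 alone with the block, Gbp3 differed by 0.67 (limma adjusted p = 0.147) and Jak1 by -0.30 and -0.21 (limma adjusted p = 0.102 and 0.130). With the GC and length trend removed, Jak1 differed by only -0.074 at 12 weeks and -0.085 on average (limma adjusted p = 0.705 and 0.523). In the comparison NASH against control at 12 weeks, the 350 genes called higher and 1144 called lower with the block became 686 and 693 after median-of-ratios scaling, under which neither Jak1 call passed (limma adjusted p = 0.0839 and 0.0607). Irf9 differed by 0.44 and Stat2 by 0.22 (limma adjusted p = 0.0663 and 0.378 with the block). The mean of the 20 genes was highest in replicate 1 within every group, and highest of all in replicate 1 of 12-week NASH, at log2 8.80. In 24-week NASH it was 8.54, 7.94 and 8.30 in replicates 1, 2 and 3. In the 24-week controls it was 8.63, 7.96 and 7.94 in the same order.

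Markers of the cells that carry class II were examined beside the members. Of 22 macrophage and monocyte markers 19 were measured; 12 of 19 were higher in NASH at 12 weeks (median 0.075) and 19 of 19 at 24 weeks (median 0.56), with 0 called with or without the block. Their mean log2 value ran from 6.93 to 7.28 in the 12-week controls, 6.71 to 7.70 in 12-week NASH, 6.57 to 7.65 in the 24-week controls and 7.48 to 8.18 in 24-week NASH. The lowest library for this mean and for class II was the same, replicate 3 of the 24-week controls, but the highest was not. In replicate 3 of 24-week NASH, the highest for class II with a mean of 11.92, the macrophage mean was 7.48. In replicate 2 of that group the macrophage mean was 8.18 and the class II mean 11.05. C1qb, a complement chain made by macrophages, differed by 0.70 on average, the receptor subunit Fcer1g by 0.72, the growth factor receptor Csf1r by 0.59 and C1qa by 0.56 (limma adjusted p = 0.0987, 0.103, 0.157 and 0.142 with the block). The part of macrophage number or content in the class II values was not tested.

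**Figure D5:**
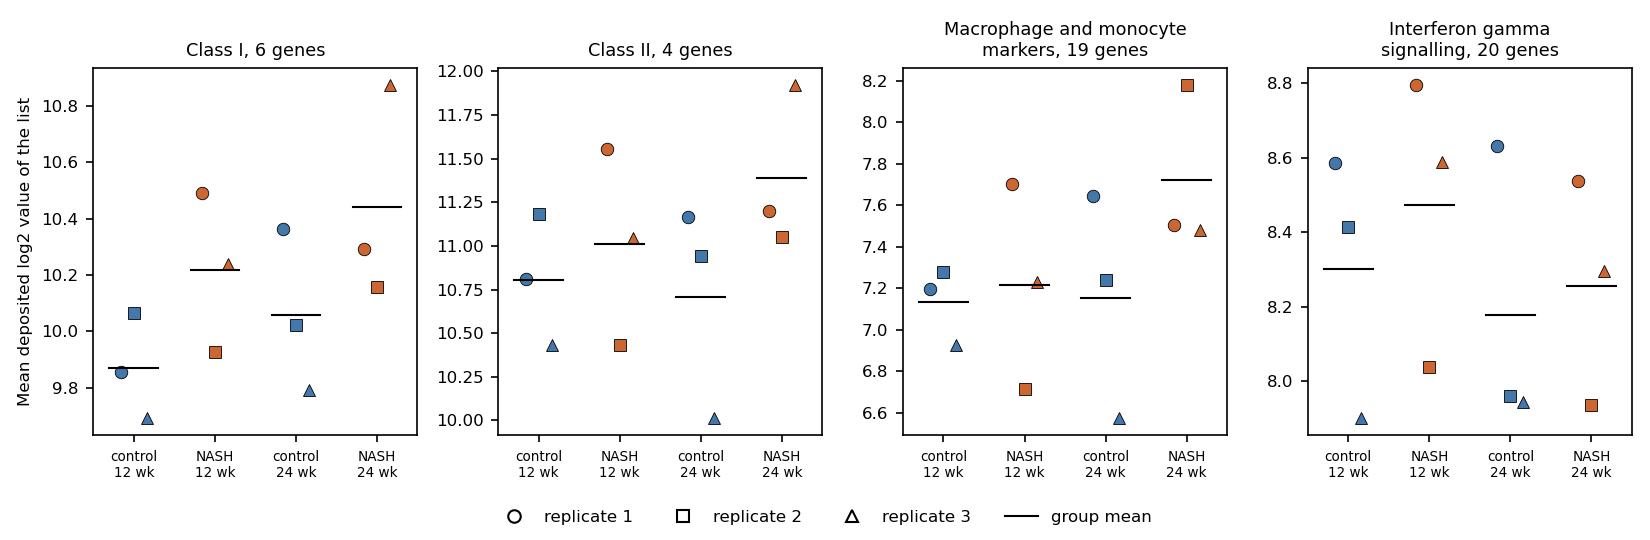
Mean deposited log2 value of the class I genes, the class II genes, the macrophage and monocyte markers and the interferon gamma signalling genes in each library, with replicate numbers as symbols and a line at the group mean; vertical axes differ and do not start at 0. The highest library is replicate 3 of 24-week NASH for class I (10.87) and class II (11.92), replicate 2 of that group for the macrophage markers (8.18) and replicate 1 of 12-week NASH for the interferon gamma list (8.80).

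Lymphocyte and dendritic cell markers were nearly all outside the measured genes. The files list 0 of 11 B and plasma cell markers, 1 of 14 T and NK cell markers (Cd8b1) and 1 of 10 dendritic cell markers (Clec9a). Cd8b1 was at 2.17 to 4.16 in replicate 1 of the groups and 5.36 to 6.79 in replicates 2 and 3, and Clec9a ranged from 6.14 to 7.17. With the block, their average differences were -0.56 and 0.06 (limma adjusted p = 0.246 and 0.820). Which genes were kept in the files was decided before deposition, and the rule is not given in the sources used here, so a marker that is not listed is not shown to be at 0.

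Of the 5 genes listed as inner medulla markers, which include collecting duct genes, all were measured. Among them 4 were higher in NASH at 12 weeks and 2 at 24 weeks (medians 0.47 and -0.36). Of the 7 podocyte markers 4 and 6 were higher (medians 0.014 and 0.26), and of the 12 endothelial markers 4 and 9 (medians -0.28 and 0.099). Of the 10 proximal tubule markers 3 and 6 were higher (medians -0.089 and 0.037), with 0 called with or without the block. With the block Aqp2, the water channel of collecting ducts, rose by 1.46 at 12 weeks (limma adjusted p = 0.0270) and by 0.92 on average (limma adjusted p = 0.0422). Over all genes 3.01% and 3.03% were called higher in these tests. The podocyte scaffold gene Magi2 fell by 0.66 at 12 weeks and 0.49 on average (limma adjusted p = 0.0373 and 0.0351), when 9.85% and 7.36% of all genes were called lower. The Aqp2 and Magi2 calls held in 10, 5, 5 and 0 of 16 other fits with the block, and none of them with the GC and length trend removed (Magi2 -0.34 at 12 weeks and -0.29 on average) or for replicates 2 and 3 alone. The mean of 12 endothelial markers ran from 8.35 to 10.21 in controls and from 8.89 to 10.09 in NASH, and was highest in replicate 1 at 24 weeks. The mean of 5 inner medulla markers ran from 8.36 to 9.88 in 12-week NASH against 7.93 to 9.10 in its controls, and from 8.05 to 8.72 in 24-week NASH against 8.36 to 9.35. Replicate 3 of 12-week NASH held both the highest inner medulla mean, 9.88, and the lowest proximal tubule mean, 13.73. Podocyte markers averaged log2 9.66 to 9.91 in replicate 1 of the groups and 8.45 to 8.96 in replicates 2 and 3. Whether the share of these structures in the dissected cortex bears on the MHC values was not tested.

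Across the 12 libraries the class II genes correlated more closely with the mean of their class than the class I genes did with theirs. Each gene is 1 of 4 in the class II mean and 1 of 6 in the class I mean, which by itself tends to raise the class II values. The Pearson correlation with the class II mean was 0.99 for Cd74, 0.98 for H2-Eb1, 0.97 for H2-Ab1 and 0.97 for H2-Aa, each of which is part of that mean. With the class I mean it ran from 0.71 for Tap1 to 0.95 for Tapbp among its own genes, and was 0.95 for H2-Ab1 and 0.92 for Cd74, which are not part of it. Outside the members, the genes most like the class I mean were H2-DMb1 (0.95), H2-DMa (0.94), Psme2b (0.92), H2-L (0.92) and Psme2 (0.90). Those most like the class II mean were Eef1b2 (0.94), Slfn2 (0.92), the immunoproteasome subunit Psmb8 (0.91), H2-DMb1 (0.91) and Pdlim7 (0.91). All points share library, depth and replicate number, and 1 library, replicate 3 of 24-week NASH, is extreme for most of these genes.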

How the data were processed

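The authors deposited normalized log2 values per gene, per the file headers. Per the submitters' processing notes the tools were BWA and limma and the build mm10; their roles and versions are not given in the sources used here. In genes with 1 transcript, 98.1% to 100% of low values (under 60 steps) were whole multiples, within 0.01, of 1 step per library, from which depth was estimated. Values were used as deposited, with no pseudocount.

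With limma 3.58.1 (R 4.3.3), 4 group means over 12 libraries were fitted per gene, with a mean-variance trend; 2-sided tests were adjusted by Benjamini-Hochberg over 11614 genes and called at an adjusted p under 0.05. Replicates 1, 2 and 3 occur in every group, with no label giving the meaning of a number. Deviations from group means of all 18 same-numbered pairs correlated above 0.1 (medians 0.70 for 1 with 1, 0.40 for 2 with 2, 0.43 for 3 with 3). The number was therefore also fitted as a block. Medians were 0.37 for 2 with 3, -0.50 for 1 with 2 and -0.56 for 1 with 3. Replicate 1 standing apart in every group can meet this rule by itself, so it does not show that numbers 2 or 3 are matched across groups. Blocked values are given where they change a call, and for the named genes of the other lists. The fit was tested on simulated data. Figures used Python 3.11.15, pandas 2.3.3, numpy 2.4.6 and matplotlib 3.10.9.

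The 15 gene lists (187 genes, 125 measured), which include the class I and class II members, were chosen with earlier results of these data known. All members are given, and of each other list up to 4 genes with the smallest p for the average effect with the block; for endothelial, proximal tubule, podocyte and inner medulla markers only called genes are named. Alternatives were the block, the block with a GC and length trend removed (GC known for 99.7% of genes), quantile and median-of-ratios scaling, no variance trend, the compared groups alone, a low-value filter, replicates 2 and 3 only, and leaving out each library. The block together with either scaling or with replicates 2 and 3 was added after seeing the data. Starts of coordinates were raised by 1.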

Additional observations from a re-analysis of the deposited data

Results flagged for a closer look

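Creb1, which encodes a factor that binds the X2 box, was lower in NASH in every same-numbered pair at 12 weeks and higher in every pair at 24 weeks. The pairs were -0.55, -0.57 and -0.0028 at 12 weeks and 0.055, 0.22 and 0.26 at 24 weeks, and the difference of the NASH effects, 24 minus 12 weeks, was 0.55 (SE 0.41, limma adjusted p = 0.9995; 0.282 with the replicate block). No label links the libraries of a pair. With 125 listed genes examined for opposite pairs, the opposite directions themselves carry no test of their own.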

How the results depend on the processing

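Counts of genes called by limma at an adjusted p under 0.05 depended on the replicate block, the scaling and the libraries used. For NASH against control at 12 weeks, 6 genes were called without the block and 1494 with it (350 higher, 1144 lower), 325 with the block and the GC and length trend removed, 1230 with the block and quantile normalization (532 higher, 698 lower), 1379 with the block and median-of-ratios scaling (686 higher, 693 lower), 1 in the compared groups alone, 385 in replicates 2 and 3 only and 632 in these with the block. Leaving out 1 library gave 0 to 11 without the block and 253 to 1533 with it, so 0 to 1533 in all. For NASH against control at 24 weeks the 0 became 1 with the block, alone, with the GC and length trend removed or with either scaling, 12 in replicates 2 and 3 only, 25 in these with the block, and 0 to 4 without 1 library. For the difference of the NASH effects, 24 minus 12 weeks, the 0 became 1 with the block, with the GC and length trend removed or with median-of-ratios scaling, 4 with the block and quantile normalization, 73 in replicates 2 and 3 only, 91 in these with the block, and 0 to 29 without 1 library.

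For the NASH effect averaged over both times, 0 genes became 1207 with the block, 277 with the GC and length trend removed, 1161 with the block and quantile normalization (534 higher, 627 lower), 1243 with the block and median-of-ratios scaling (628 higher, 615 lower), 5 with quantile normalization alone, 1 with median-of-ratios scaling alone, 1 after the low-value filter, 123 in replicates 2 and 3 only, 185 in these with the block, and 0 to 1093 without 1 library. For control, 24 against 12 weeks, 0 became 20 with the block, 3 with the GC and length trend removed, 32 with quantile normalization and 4 with median-of-ratios scaling under the block, 1 in the compared groups alone, 755 in replicates 2 and 3 only, 800 in these with the block, and 0 to 434 without 1 library. For NASH, 24 against 12 weeks, 0 became 3 with the block, 1 with the GC and length trend removed, 4 with quantile normalization and 1 with median-of-ratios scaling under the block, 541 in replicates 2 and 3 only, 596 in these with the block, and 0 to 170 without 1 library. Every other setting, apart from those leaving out 1 library, gave a count within 1.5 times the first. The compared groups alone give no separate value for the difference of effects or the average.

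Member differences at 12 weeks reversed in replicates 2 and 3 only, with or without the block, to -0.26 for Tap1, -0.11 for Cd74, -0.13 for H2-Aa and -0.050 for H2-Ab1. With the block and the GC and length trend removed they reversed to -0.067 for Cd74 and -0.021 for H2-Aa. Without 1 library the 12-week difference ran from -0.18 to 0.55 for Tap1, from -0.14 to 0.46 for Cd74 and from -0.16 to 0.46 for H2-Aa. At 24 weeks it ran from -0.088 to 0.42 for Tap2, from -0.044 to 0.71 for H2-K1 and from -0.036 to 1.55 for Gbp3. The difference of the NASH effects for B2m ran from -0.060 to 0.64. Of the alternative values for the genes described, 30 were reversed, 1623 kept direction and call and 79 gained a call. With the replicate block, calls were gained by B2m, H2-T23, Psme1, Gbp3, Jak1, Magi2 and Aqp2, and by no other gene described. Causes were not tested. Depth leaves Tap1 the least precisely counted member, and leaving out a library leaves a group of 2, whose spread is assumed to match the other groups. The fits joining the block to a scaling or to replicates 2 and 3 were chosen after seeing the data.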
